A study of Homo sapiens with 8 samples.

Results

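The genes of the proteasome were taken from a gene-level RNA count table by their symbols, as PSM followed by a letter from A to G and a number. The rule found 48 of the 28518 rows. They were classed by symbol. The core particle has 8 PSMA genes for the outer alpha rings and 8 PSMB genes for the inner beta rings. The 3 immunoproteasome genes PSMB8, PSMB9 and PSMB10 were kept apart. The regulatory cap has 6 PSMC genes for its ATPases. The 14 PSMD genes were classed as non-ATPase cap genes by symbol alone, whether or not they are subunits of the finished cap. The last 9 are PSME, PSMF and PSMG genes for activators, an inhibitor and assembly chaperones. Of the 48, 46 passed the filter on low counts. PSMA8, known as a testis-specific alpha subunit, had 2 counts in I593T library A, 2 in N737H library B and 0 in every other library. PSMB11, the catalytic subunit of the thymus, had 2 counts in N737H library A and 0 in every other library.

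The cells were HaCaT, an immortalised human keratinocyte line, with CARD14 knocked out. CARD14 is an epithelial scaffold protein of the CARD and MAGUK family that activates NF-kB. Dishes of 10 cm received 9 ug of a plasmid for CARD14 joined to eGFP through a self-cleaving peptide, with the variant R820W, N737H or I593T or the wild-type sequence (WT), and GFP-positive cells were sorted 24 h later. All 4 groups share the knockout and the transfection, each has a library titled A and a library titled B, and no library without a CARD14 plasmid was analysed here. The series asked which pathways differ between cells with the hypomorphic variants and cells with WT CARD14. The labels do not say how many knockout clones were used.

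The proteasome is the large protease that degrades proteins tagged with ubiquitin. Its core particle holds the catalytic beta subunits inside a barrel of alpha and beta rings, and the cap binds ubiquitin chains, unfolds the substrate with its ATPases and feeds it into the core. Under interferon, cells replace the catalytic subunits PSMB6, PSMB7 and PSMB5 with PSMB9, PSMB10 and PSMB8, and this immunoproteasome makes peptides for presentation by MHC class I. In many cell types the transcription factor NFE2L1 raises the constitutive subunits together when proteasome activity falls.

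The 8 libraries held 17892608 to 24629860 counts, and proteasome genes took 1.48% of the counts in WT A to 1.70% in WT B. CPM below are counts scaled to a common library size after normalisation by edgeR's trimmed mean of M values. All 8 keratinocyte markers had a mean above 1 CPM, whereas 0 of 7 fibroblast and 0 of 3 endothelial markers did. Of 5 melanocyte markers, 3 did, with means of 8.49 CPM for MITF, 1.33 CPM for PMEL and 1.17 CPM for MLANA. Of 8 leukocyte markers, which mark cells that carry the immunoproteasome at rest, 2 passed 1 CPM (LCP1 and CORO1A), and PTPRC had a mean of 0.0653 CPM. The summed leukocyte list lay between 126 and 160.1 CPM in R820W, 128 and 150.5 CPM in N737H, 123 and 156 CPM in I593T, and 154 and 166 CPM in WT libraries, and its part in the results was not tested. CARD14 RNA, which here includes the plasmid's, had 1409 and 1189 CPM in R820W B and A, 1005 and 444 CPM in N737H B and A, and 1394 and 499 CPM in I593T B and A, against 977 and 1126 CPM in WT B and A. MYC lay between 640.2 and 816 CPM in all 8 libraries. Libraries of whole sorted populations cannot tell fewer cells of a kind apart from less RNA per cell.

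Per length of exon, the subunits differed widely in level, although the assembled particle holds most of them in equal numbers. The highest was PSMB7, a catalytic beta subunit with trypsin-like activity, at 834 ± 91.3 CPM per kb (SD over 8 libraries). The lowest constitutive cap subunit was PSMD3, a scaffold of the cap's lid, at 14.6 ± 7.02 CPM per kb. Within the alpha ring the means ran from 56.7 CPM per kb for PSMA5 to 533 CPM per kb for PSMA7. The ATPases spanned a narrower range, from 111 CPM per kb for PSMC1 to 388 CPM per kb for PSMC3. PSMG4, an assembly chaperone, was the lowest tested gene of the set at 2.67 ± 0.988 CPM per kb. These lengths come from a gene annotation other than the authors', so levels between genes are approximate, and comparisons between libraries do not use them. Each length is the union of exons over a gene's protein-coding transcripts, such as 4536 bases for PSMA5 and 1568 bases for PSMA7. Before division by length, the means of these genes were 257 and 836 CPM. The ranges per kb thus depend on this choice of length.

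No proteasome gene differed between a variant and WT in edgeR's quasi-likelihood test at a Benjamini-Hochberg adjusted p under 0.05, and 0% of the 14834 genes tested did so in each of the 7 comparisons between groups. At an unadjusted p under 0.05, 0 of 46 proteasome genes passed for R820W against 1.04% of all genes, 0 of 46 passed for N737H against 2.44%, and 1 of 46 (PSMD3) passed for I593T against 1.43%. For the mean of the 3 variants 1 of 46 (PSMD12) passed against 1.31% of all genes. DESeq2 and limma voom called 0 proteasome genes in these comparisons. Most fold changes nevertheless had the same sign. Of 46 genes, 42 had a negative log2 fold change in R820W versus WT, 41 in N737H versus WT and 40 in I593T versus WT. The median log2 fold changes were -0.12, -0.13 and -0.08 in that order, beside -0.01, -0.03 and -0.02 over all genes tested. The 3 comparisons share the WT libraries, so their signs are not separate evidence.

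The sign of these medians turned when WT B was left out. Without WT B the median log2 fold change was 0.05 for R820W, 0.02 for N737H and 0.13 for I593T, and without WT A it was -0.23, -0.20 and -0.15 in that order. Over all genes tested it was 0.02, 0.03 and 0.01 without WT B, and 0.06, 0.07 and 0.05 without WT A. Without WT B the proteasome median for N737H thus remained below that of all genes. For N737H the proteasome median was also above zero, at 0.00092, without N737H B, beside -0.03 over all genes. Compared inside a replicate letter, the variants lay on opposite sides of WT. In B the median was -0.28 for R820W, -0.41 for N737H and -0.23 for I593T, and 2, 3 and 3 of 46 genes were higher than in WT. In A the median was 0.09 for R820W, 0.15 for N737H and 0.10 for I593T, and 28, 36 and 34 of 46 genes were higher than in WT. WT B and WT A had similar depth, with 22383534 and 22209350 counts. Their normalisation factors were 0.926, the lowest of all libraries, and 0.984. N737H B had the highest factor, at 1.077. It also had 21059 genes with a count, against 17836 to 18855 in the other libraries. The part of these differences in the medians was not tested. Per the series design there were 2 independent experiments. The labels do not say in words that the letters mark them, so an experiment, a culture and a library cannot be told apart behind the letters.

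**Figure D1:**
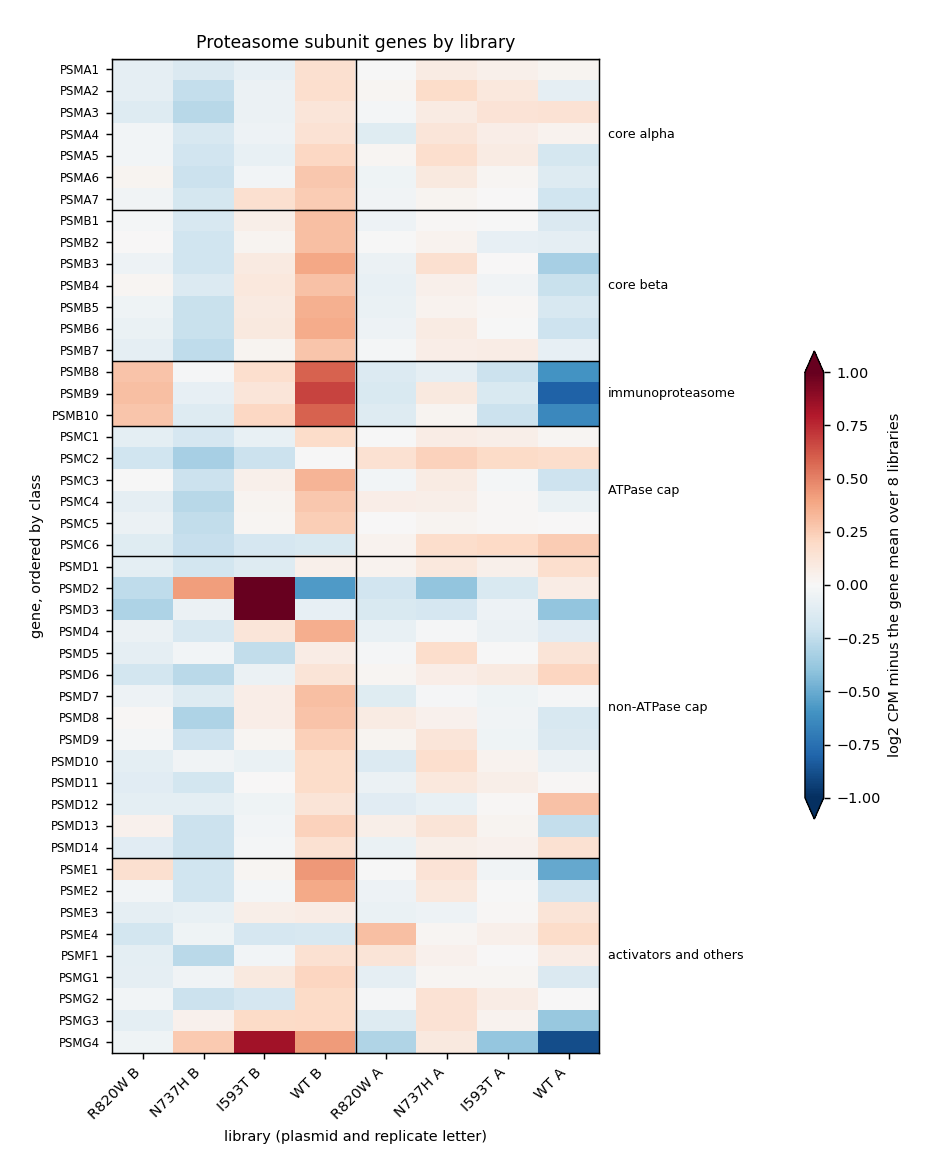
Level of each of the 46 tested proteasome genes in each library, as log2 CPM minus the gene's mean over the 8 libraries (rows, genes by class; columns, libraries, replicate B left of A). WT B is above the gene mean in most rows of the core and WT A is below it, with the widest gap in the 3 immunoproteasome rows, while PSMD2 and PSMD3 stand out in I593T B.

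The order of the libraries was counted gene by gene. In B, WT was above all 3 variants for 41 of 46 proteasome genes (89.1%), beside 33.1% of all genes tested. In A, WT was below all 3 variants for 26 of 46 (56.5%), beside 30.3% of all genes. Both orders held together for 24 of 46 proteasome genes (52.2%), beside 14.4% of all genes. They were all 7 constitutive beta genes tested, all 3 immunoproteasome genes, 4 of 7 alpha genes and 2 of 6 ATPases. The remaining ones were 4 of 14 PSMD genes and 4 of 9 genes of the class of activators, inhibitor and chaperones. WT A was the lowest and WT B the highest of all 8 libraries for 10 of 46 proteasome genes (21.7%), beside 8.38% of all genes. The reverse crossing, with WT above the variants in A and below them in B, held for PSMD2 alone, beside 11.2% of all genes.

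The difference between the letters was tested as an interaction, chosen after the data had been seen and with the 3 variants pooled. It compares variants minus WT in B with variants minus WT in A. In this fit WT has 1 library per letter and no replicate, and the spread comes from the 3 different variants taken as replicates of each other. It therefore gives the size of the crossing already described and is no separate support for it. The interaction was below zero for 40 of 46 proteasome genes, with a median of -0.44 on the log2 scale beside 0.05 over all genes. No proteasome gene passed the adjusted threshold in edgeR's quasi-likelihood test, where 0.142% of all genes did, and 25 of 46 had an unadjusted p under 0.05, beside 17.3% of all genes. DESeq2 called 10 of them (PSMA5, PSMB3, PSMB6, PSMB8, PSMB9, PSMB10, PSMC3, PSMD13, PSME1 and PSME2) among 651 genes, and limma voom called 0 among 11. Without R820W B edgeR called 310 genes, with PSMB8, PSMB9 and PSME1 below zero and PSMD2 above it.

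**Figure D2:**
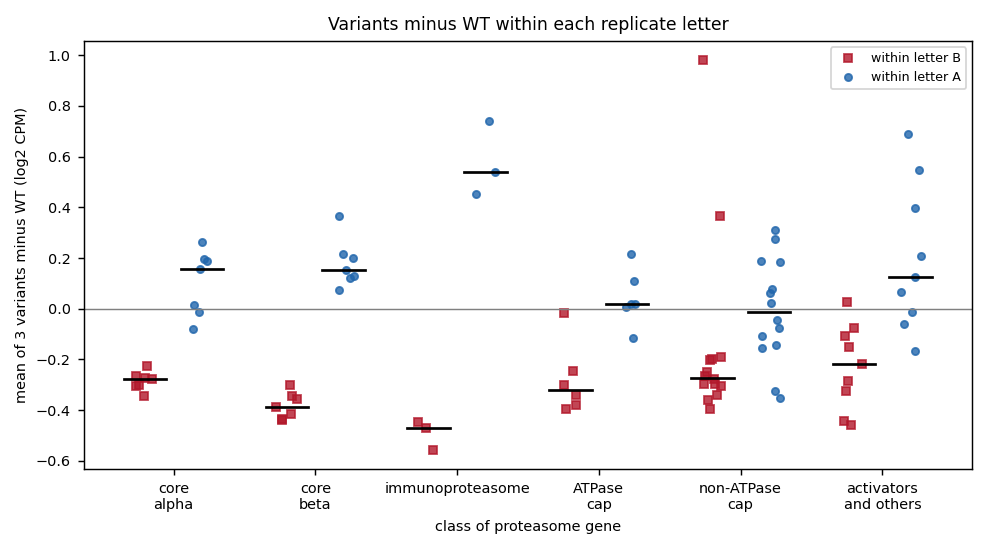
Mean of the 3 variants minus WT for each tested gene (vertical axis, difference of log2 CPM) by class (horizontal axis), within replicate letter B (squares) and A (circles), with the median of each class as a bar. The 3 immunoproteasome genes lie between -0.56 and -0.45 in B and between 0.45 and 0.74 in A, and all 7 constitutive beta genes lie below zero in B and above it in A.

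By class median the immunoproteasome genes had the widest crossing. Among single genes, the interaction of PSME1 was wider than that of PSMB8, and that of PSMD2, in the opposite direction, was larger in size than all 3. Their promoters are shown because 2 of them are neighbours in the MHC class II region with the peptide transporter genes TAP1 and TAP2, and because interferon acts on such promoters through short elements. Each window is the 250 bases before the start of transcription, from RefSeq on GRCh38.p14, read 5′ to 3′ along the gene. The windows are chr6:32844680-32844929 on the minus strand for PSMB8, chr6:32853942-32854191 on the plus strand for PSMB9, chr6:32853705-32853954 on the minus strand for TAP1, chr16:67936851-67937100 on the minus strand for PSMB10 and chr14:24146611-24146860 on the minus strand for PSME2. Capitals mark matches on either strand to an interferon-stimulated response element (ISRE, searched as GAAA, any 2 bases and GAAA), a gamma-activated site (GAS, TTCNNNGAA) or an NF-kB motif (GGG, any 2 bases and TTTCC).
PSMB9: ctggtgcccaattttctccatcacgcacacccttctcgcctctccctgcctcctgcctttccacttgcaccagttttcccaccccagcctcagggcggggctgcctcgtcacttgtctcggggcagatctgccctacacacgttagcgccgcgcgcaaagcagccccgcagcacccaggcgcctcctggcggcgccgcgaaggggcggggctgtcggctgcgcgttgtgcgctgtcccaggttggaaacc
TAP1: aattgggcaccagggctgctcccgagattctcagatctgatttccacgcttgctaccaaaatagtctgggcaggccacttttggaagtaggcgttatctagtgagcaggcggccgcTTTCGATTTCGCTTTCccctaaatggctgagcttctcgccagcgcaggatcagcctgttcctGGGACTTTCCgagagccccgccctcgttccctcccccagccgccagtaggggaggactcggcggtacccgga
PSMB8: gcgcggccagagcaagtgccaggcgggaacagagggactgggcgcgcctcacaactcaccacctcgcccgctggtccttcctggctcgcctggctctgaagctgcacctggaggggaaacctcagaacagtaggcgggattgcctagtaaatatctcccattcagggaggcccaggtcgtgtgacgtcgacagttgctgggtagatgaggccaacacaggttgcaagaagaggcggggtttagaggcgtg
PSMB10: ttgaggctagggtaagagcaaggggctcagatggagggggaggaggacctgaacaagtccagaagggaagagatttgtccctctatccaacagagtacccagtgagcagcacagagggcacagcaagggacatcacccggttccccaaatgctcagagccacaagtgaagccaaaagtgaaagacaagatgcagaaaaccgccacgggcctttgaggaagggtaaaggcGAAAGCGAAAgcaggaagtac
PSME2: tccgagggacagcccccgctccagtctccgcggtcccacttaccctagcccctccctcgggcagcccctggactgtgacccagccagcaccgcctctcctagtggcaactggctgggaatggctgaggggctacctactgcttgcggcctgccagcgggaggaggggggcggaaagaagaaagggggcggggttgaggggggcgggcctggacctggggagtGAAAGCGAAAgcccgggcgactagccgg
The PSMB9 and TAP1 windows run away from each other on opposite strands and overlap at their edges. The TAP1 window held 2 overlapping ISRE matches that began 134 and 128 bases before its start, and an NF-kB match 72 bases before it. PSMB10 had an ISRE match 21 bases before its start, and PSME2 had an ISRE match 28 bases before its start. The PSMB8 and PSMB9 windows held none of the 3 motifs, and neither did that of PSME1, the partner of PSME2.

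PSMB8 encodes the immunoproteasome subunit that replaces PSMB5. It had 223 and 167 CPM in R820W B and A, 182 and 172 CPM in N737H B and A, and 206 and 158 CPM in I593T B and A, against 277 and 121 CPM in WT B and A. The 6 variant libraries thus lay between the WT pair, and each B library was above every A library. The log2 fold change of R820W versus WT was -0.03 with a 95% interval of -0.84 to 0.78. PSMB9, which replaces PSMB6, had 203 and 148 CPM in R820W B and A, 155 and 176 CPM in N737H B and A, and 179 and 148 CPM in I593T B and A, against 262 and 93.7 CPM in WT B and A. WT B was again the highest library and WT A the lowest. PSMB9 had the lowest adjusted p of the set in the interaction, at -1.30 ± 0.23 (log2, SE, adjusted p = 0.104 by edgeR). PSMB10, which replaces PSMB7, had 120.2 and 90.6 CPM in R820W B and A, 90.4 and 101 CPM in N737H B and A, and 114 and 85.3 CPM in I593T B and A, against 149 and 63.4 CPM in WT B and A. All 3 genes shared this order of the WT pair, and across the 8 libraries their log2 levels correlated pairwise with Pearson's r between 0.970 and 0.985, a description over libraries that share the letters.

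**Figure D3:**
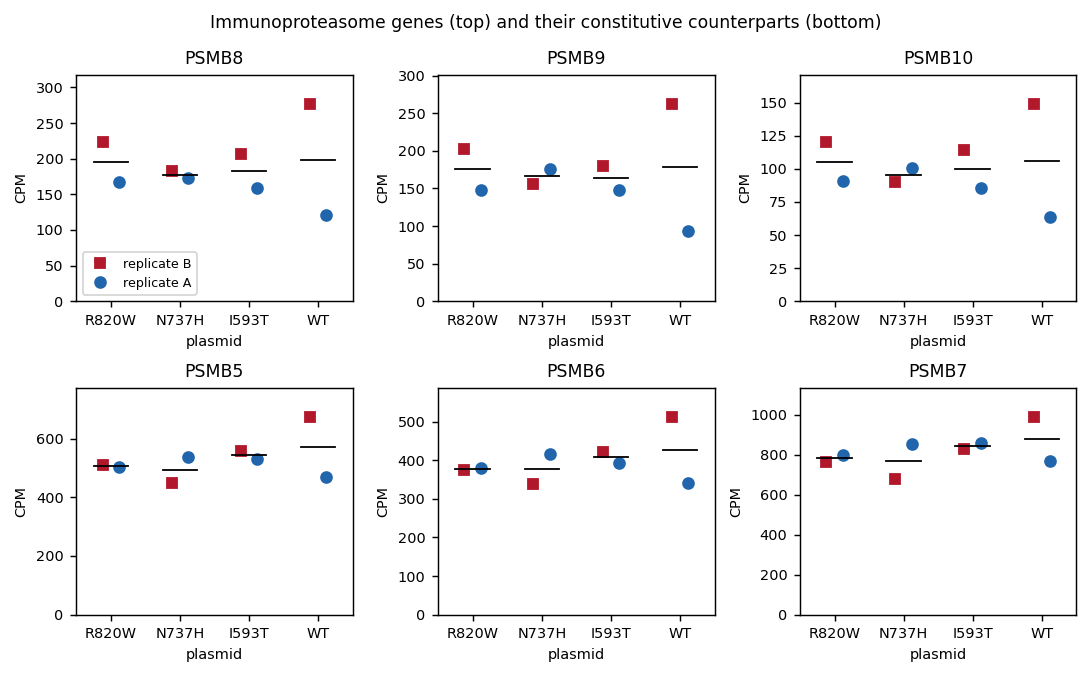
CPM of the 3 immunoproteasome genes (top row) and of the constitutive subunit that each replaces (bottom row) in every library, by plasmid, with replicate B as squares, A as circles and the group mean as a line. Each vertical axis starts at 0. WT B is the highest library for all 6 genes, and WT A is the lowest for PSMB8, PSMB9 and PSMB10.

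The constitutive counterparts crossed too, over a smaller span. PSMB5, the subunit with chymotrypsin-like activity, had 509 and 501 CPM in R820W B and A, 449 and 537 CPM in N737H B and A, and 558 and 529 CPM in I593T B and A, against 672 and 470.5 CPM in WT B and A. PSMB6, the subunit with caspase-like activity, had 376 and 381 CPM in R820W B and A, 339 and 417 CPM in N737H B and A, and 423 and 394 CPM in I593T B and A, against 512 and 342 CPM in WT B and A. For PSMB5 and PSMB6, N737H B lay below WT A, so the groups' libraries interleave. PSMB7 had 762 and 801 CPM in R820W B and A, 680.4 and 854 CPM in N737H B and A, and 829.6 and 858 CPM in I593T B and A, against 986 and 769.9 CPM in WT B and A. The log2 fold changes of these 3 genes lay between -0.21 and -0.06 over the 3 variants, each with an adjusted p of 1.00 in edgeR's test.

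The immunoproteasome share was computed as the counts of PSMB8, PSMB9 and PSMB10 as a percentage of these plus PSMB5, PSMB6 and PSMB7. It was 24.9% in R820W B and 19.4% in R820W A, 22.6% and 19.9% in N737H B and A, 21.6% and 18.0% in I593T B and A, against 24.1% and 14.9% in WT B and A. Clopper-Pearson 95% intervals, which cover counting error alone and not the spread between libraries, were widest for R820W B, from 24.5% to 25.3%. The intervals of R820W A and N737H A overlapped. The group means were 22.2 ± 3.89% in R820W, 21.2 ± 1.88% in N737H and 19.8 ± 2.55% in I593T, against 19.5 ± 6.45% in WT (SD, n = 2 each). Within every group the SD was as large as, or larger than, most gaps between group means. Between the letters the share was 23.3 ± 1.47% in B and 18.1 ± 2.23% in A (SD, n = 4 each), with every B library above every A library. For N737H the summed level of PSMB8, PSMB9 and PSMB10 was nevertheless lower in B, at 428 CPM, than in A, at 450 CPM. PSMB5, PSMB6 and PSMB7 were each lower in N737H B than in N737H A as well. In the other groups the immunoproteasome sum was higher in B. Per length of exon, PSMB8 stood at 0.243 (WT A) to 0.415 (R820W B) times PSMB5, PSMB9 at 0.259 to 0.510 times PSMB6, and PSMB10 at 0.066 to 0.127 times PSMB7.

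**Figure D4:**
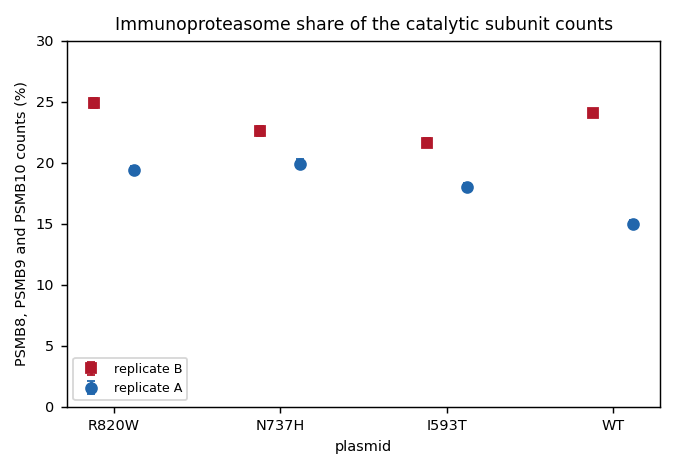
Counts of PSMB8, PSMB9 and PSMB10 as a percentage of their sum with PSMB5, PSMB6 and PSMB7 (vertical axis) in each library by plasmid, with replicate B as squares, A as circles and 95% Clopper-Pearson intervals as bars, mostly hidden by the symbols. Every B library (21.6% or more) lies above every A library (19.9% or less), and the WT pair is the farthest apart.

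The genes that work beside the immunoproteasome in class I presentation were taken as a list of 14. None passed the adjusted threshold in edgeR's test between a variant and WT. For R820W 12 of 14 were higher than in WT with a median log2 fold change of 0.19, for N737H 3 of 14 with a median of -0.11, and for I593T 8 of 14 with a median of 0.02. B2M, the light chain of class I molecules, had 7371 and 6372 CPM in R820W B and A, 6377 and 6987 CPM in N737H B and A, and 7076 and 6752 CPM in I593T B and A, against 9248 and 5927 CPM in WT B and A. B2M crossed as PSMB8 did. TAP2, singled out after its values were seen, had 219 and 111 CPM in R820W B and A, 147 and 115 CPM in N737H B and A, and 195 and 99.6 CPM in I593T B and A, against 212 and 46.4 CPM in WT B and A. ISG15, an interferon-induced gene also named after its values were seen, had 1583 and 1201 CPM in R820W B and A, 1305 and 1373 CPM in N737H B and A, and 1721 and 1211 CPM in I593T B and A, against 2152 and 789.8 CPM in WT B and A. The WT pair was thus also the farthest apart for B2M, TAP2 and ISG15, and their part in the immunoproteasome values was not tested.

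The other constitutive beta genes, structural subunits of the ring, followed the catalytic ones. PSMB2, the beta gene of smallest unadjusted p for I593T, had 414 and 413 CPM in R820W B and A, 361 and 425 CPM in N737H B and A, and 422 and 391 CPM in I593T B and A, against 510.1 and 389.9 CPM in WT B and A. Here the R820W pair was nearly identical while the WT pair differed. PSMB3 had the widest crossing of the constitutive beta genes, with an interaction of -0.80 ± 0.19 (log2, SE). The summed level of the class was 3135 and 3140.5 CPM in R820W B and A, 2798 and 3381 CPM in N737H B and A, and 3384 and 3257 CPM in I593T B and A, against 4051 and 2904 CPM in WT B and A. WT thus had both the highest and nearly the lowest library, and only N737H B was lower than WT A.

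All 7 tested alpha genes had a negative log2 fold change in R820W and N737H versus WT, and 6 of 7 did in I593T. Their class medians were -0.25 in B and 0.09 in A for R820W, -0.40 and 0.23 for N737H, and -0.23 and 0.15 for I593T. PSMA3 had 269.8 and 292 CPM in R820W B and A, 244 and 312 CPM in N737H B and A, and 284 and 324 CPM in I593T B and A, against 321 and 327 CPM in WT B and A. For this gene the WT pair nearly coincided and no crossing was seen. PSMA1 had 586 and 625 CPM in R820W B and A, 565 and 660.4 CPM in N737H B and A, and 589 and 648 CPM in I593T B and A, against 697 and 637 CPM in WT B and A. Their log2 fold changes for N737H versus WT, the variant with the lowest class median, were -0.22 ± 0.17 for PSMA3 and -0.12 ± 0.15 for PSMA1 (SE).

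The 6 ATPases, which form the ring that unfolds substrates, all had negative log2 fold changes in every variant versus WT, between -0.23 and -0.04. PSMC5 had 286 and 298 CPM in R820W B and A, 250.5 and 302 CPM in N737H B and A, and 301 and 299 CPM in I593T B and A, against 352 and 298 CPM in WT B and A. The 4 A libraries lay close together, between 298 and 302 CPM, and the groups separated in B alone. PSMC1 had 459 and 489.7 CPM in R820W B and A, 437 and 516 CPM in N737H B and A, and 466 and 512 CPM in I593T B and A, against 559 and 499 CPM in WT B and A. PSMC2 and PSMC6 differed from the other 4 by following the letter: PSMC2 had 295 and 375 CPM in R820W B and A, 268 and 396 CPM in N737H B and A, and 292 and 386 CPM in I593T B and A, against 337 and 381 CPM in WT B and A. All 4 B libraries were below all 4 A libraries for it.

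Among the 14 PSMD genes, the crossing held for PSMD4, PSMD8, PSMD9 and PSMD13 and not for the other 10. PSMD12, a scaffold of the cap's lid, had 319 and 315 CPM in R820W B and A, 319 and 323 CPM in N737H B and A, and 332 and 344 CPM in I593T B and A, against 372 and 417 CPM in WT B and A. All 6 variant libraries were below both WT libraries. Its log2 fold change for the mean of the variants was -0.28 ± 0.11 (SE) with an unadjusted p of 0.0359 and an adjusted p of 1.00 in edgeR's test. Variants lay below WT in the same way for PSMD6, PSMD14 and PSME3, so that 4 of 46 proteasome genes (8.7%) had this order, beside 3.13% of all genes, and 0 had the opposite order, beside 2.47%. PSMD6, also of the lid, had 143 and 165 CPM in R820W B and A, 134 and 169.8 CPM in N737H B and A, and 156 and 172 CPM in I593T B and A, against 177 and 188 CPM in WT B and A. PSMD14, the deubiquitinase that removes ubiquitin chains at the cap, had 391 CPM (N737H B) to 472 CPM (N737H A) in the variant libraries, against 503 and 505 CPM in WT B and A.

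PSMD3 was the proteasome gene of smallest unadjusted p for I593T. It had 23.7 and 26.5 CPM in R820W B and A, 28.2 and 26.2 CPM in N737H B and A, and 68.5 and 28.3 CPM in I593T B and A, against 27.7 and 22.3 CPM in WT B and A. A single library, I593T B, was more than 2 times every other, a pattern shown by 0.6% of all genes. The log2 fold change of I593T versus WT was 0.95 ± 0.36 (SE, adjusted p = 1.00 by edgeR), and it was 0.18 without I593T B. The neighbouring gene CSF3 had 9.39 CPM in I593T B and 7.82 to 23.2 CPM in the other 7 libraries. MED24, on the same side as CSF3, was highest in I593T B as well, at 20.1 CPM, against 12.3 to 18.5 CPM in the other 7 libraries. GSDMA and ORMDL3, on the other side, were not highest there. GSDMA had 2.13 CPM in I593T B, against 1.07 to 3.44 CPM in the other 7 libraries. ORMDL3 had 14.5 CPM in I593T B, against 1.83 to 17.1 CPM in the other 7 libraries.

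PSMD2, a ubiquitin-binding base subunit and the only proteasome gene with the reverse crossing, was singled out after its values were seen. It had 281 and 293 CPM in R820W B and A, 448 and 254 CPM in N737H B and A, and 700.5 and 301 CPM in I593T B and A, against 226 and 353 CPM in WT B and A. WT B was its lowest library and I593T B its highest. The nearby gene EIF4G1 was also highest in I593T B, at 291 CPM, against 165 to 209.9 CPM in the other 7 libraries. With strand use not stated, reads shared between PSMD2 and a neighbour cannot be told apart from reads of its own. The interaction for PSMD2 was 1.40 ± 0.53 (log2, SE) with an adjusted p of 0.234 in edgeR's test.

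**Figure D5:**
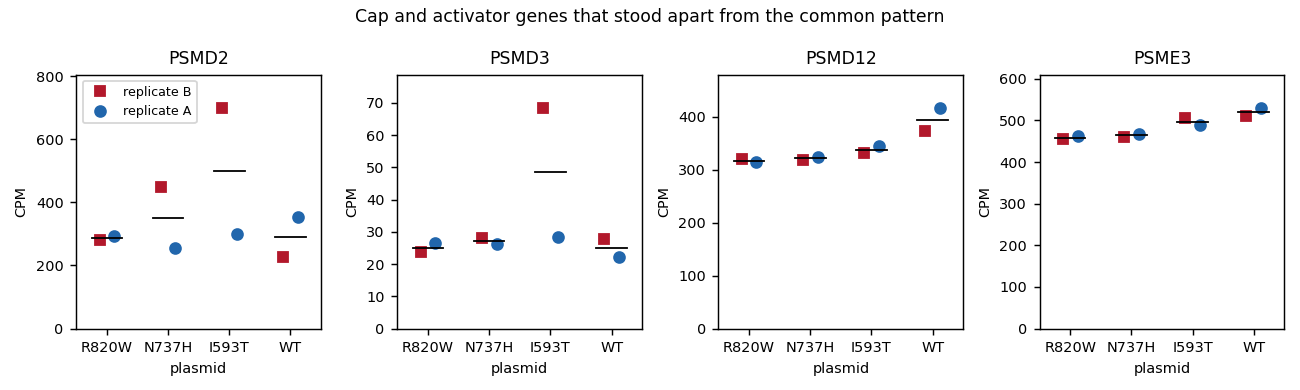
CPM of PSMD2, PSMD3, PSMD12 and PSME3 in every library by plasmid, with replicate B as squares, A as circles and the group mean as a line. Each vertical axis starts at 0. I593T B is far above the other libraries for PSMD2 and PSMD3, and both WT libraries lie above all 6 variant libraries for PSMD12 and PSME3.

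Activators bind the core in place of the cap. PSME1 and PSME2 form the interferon-inducible activator PA28 and lie near each other on chromosome 14. PSME1, named after its values were seen, had 280.1 and 249 CPM in R820W B and A, 218 and 276 CPM in N737H B and A, and 255 and 244 CPM in I593T B and A, against 339 and 175 CPM in WT B and A. It crossed as widely as the immunoproteasome genes, with an interaction of -0.98 ± 0.21 (log2, SE, adjusted p = 0.117 by edgeR). PSME2 had 562 and 555 CPM in R820W B and A, 501 and 618 CPM in N737H B and A, and 567 and 573 CPM in I593T B and A, against 745 and 503 CPM in WT B and A. PSME3, the nuclear activator, had 455 and 463 CPM in R820W B and A, 460.5 and 468 CPM in N737H B and A, and 505 and 488 CPM in I593T B and A, against 509.8 and 531 CPM in WT B and A. Its libraries agreed closely within each group, and its log2 fold change was -0.18 ± 0.13 for R820W, -0.16 ± 0.13 for N737H and -0.07 ± 0.13 for I593T versus WT (SE). PSMF1, an inhibitor of the core, had 231 and 272 CPM in R820W B and A, 206 and 256 CPM in N737H B and A, and 243 and 249 CPM in I593T B and A, against 276 and 261 CPM in WT B and A. PSMG4, which helps to assemble the alpha ring, had 14.2 and 11.9 CPM in R820W B and A, 17.6 and 15.7 CPM in N737H B and A, and 26.3 and 11.1 CPM in I593T B and A, against 19.7 and 7.87 CPM in WT B and A. Every group had its higher PSMG4 level in B.

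Between the variants, 0 proteasome genes passed the adjusted threshold in edgeR's test, and 0% of all genes did. R820W versus N737H gave 25 of 46 higher and a median log2 fold change of 0.01, with 0 genes of the set at an unadjusted p under 0.05 beside 1.63% of all genes. That median joins opposite values, 0.14 in B and -0.10 in A, and it was -0.15 without N737H B and 0.17 without N737H A. R820W versus I593T gave 13 of 46 higher and a median of -0.06, with PSMD3 alone at an unadjusted p under 0.05 beside 1.23% of all genes. N737H versus I593T gave 6 of 46 higher and a median of -0.06, with 0 at an unadjusted p under 0.05 beside 1.14% of all genes. Here 3 of 46 were higher in B and 37 of 46 in A, and the median turned to 0.08, with 37 of 46 higher, without N737H B, and was -0.21 without N737H A. These 3 comparisons do not use the WT libraries in their fold changes. N737H B had the lowest summed level of all 48 genes, at 13916 CPM, and the other 5 variant libraries lay between 15106 and 16413 CPM.

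Replicate B was compared with replicate A within the 4 groups. In edgeR's quasi-likelihood test 0 of 46 proteasome genes passed the adjusted threshold, beside 3.24% of all genes (1.52% lower and 1.71% higher in B). At an unadjusted p under 0.05, 5 of 46 passed, beside 23% of all genes. They were PSMC2 (-0.37 ± 0.092, log2 and SE, adjusted p = 0.076 by edgeR), PSMC6 (-0.34), PSMG4 (0.74), PSMB8 (0.52) and PSME4 (-0.28), the last being the activator PA200. The B libraries were all below the A libraries for 3 of 46 (PSMC2, PSMC6 and PSME4), beside 10% of all genes, and all above them for PSMB8 alone, beside 8% of all genes. The median log2 fold change was 0.02, beside 0.03 over all genes. It was 0.14 without N737H B and 0.13 without N737H A, and it turned to -0.10 without WT B and without WT A, where 35 of 46 genes were lower in B. Leaving out either library of a group takes that group out of this estimate, because the group term then fits its other library. Both runs of a group thus rest on the same other groups and are not separate evidence. Without WT A or without WT B, edgeR called PSMC2 at an adjusted p of 0.021 and 0.0247, and its log2 fold change was -0.44 in both.

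Genes that work with the proteasome were taken as 4 further lists. Between variants and WT, 0 of their 42 tested genes passed the adjusted threshold in edgeR's test. Among 13 partners and assembly factors, 12 were lower in R820W than in WT, 11 in N737H and 10 in I593T, with medians of -0.17, -0.13 and -0.11 (log2). POMP, the chaperone of core assembly, had 564 and 584 CPM in R820W B and A, 563 and 664 CPM in N737H B and A, and 647 and 659.8 CPM in I593T B and A, against 753 and 708 CPM in WT B and A. ADRM1, a ubiquitin receptor of the cap, had 603 and 625 CPM in R820W B and A, 516 and 629.5 CPM in N737H B and A, and 699.7 and 605 CPM in I593T B and A, against 755 and 587 CPM in WT B and A. The crossing seen in 24 of 46 proteasome genes was present in 1 of 13 partners, 1 of 12 shuttle genes, 2 of 6 ubiquitin genes, 0 of 11 regulators and 4 of 14 class I companions, beside 14.4% of all genes. By size, the median interaction was -0.36 for the ubiquitin genes and -0.45 for the class I companions. These values lie near the -0.44 of the 46 proteasome genes. It was -0.02 for the partners, 0.12 for the shuttle genes and 0.16 for the regulators, beside 0.05 over all genes. The difference between these lists was not tested. Among 12 shuttle genes, 7, 9 and 7 were lower in R820W, N737H and I593T than in WT, and among 6 ubiquitin genes 4, 6 and 5 were lower. Among the 11 regulators, 4, 3 and 4 were higher in R820W, N737H and I593T than in WT. NFE2L1, also known as NRF1 and named after its values were seen, had 33.0 and 25.9 CPM in R820W B and A, 23.8 and 21.0 CPM in N737H B and A, and 40.8 and 22.8 CPM in I593T B and A, against 30.1 and 12.2 CPM in WT B and A. STAT3 and NFE2L2, the regulators of highest level, had log2 fold changes between -0.28 and 0.16 over the 3 variants. VCP, the p97 segregase, had log2 fold changes of -0.08 ± 0.16, -0.30 ± 0.16 and -0.20 ± 0.16 (SE) for R820W, N737H and I593T versus WT. UBB, a polyubiquitin gene, had log2 fold changes of -0.18, -0.20 and -0.11 for R820W, N737H and I593T versus WT.

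In B versus A, 3 of these 42 genes passed the adjusted threshold, beside 3.24% of all genes. RAD23B, a shuttle that carries ubiquitin-tagged proteins to the cap, had 109 and 32.4 CPM in R820W B and A, 101 and 41.0 CPM in N737H B and A, and 82.1 and 37.0 CPM in I593T B and A, against 109 and 30.8 CPM in WT B and A. It rose in B, with a 95% interval of 1.18 to 1.82 on the log2 scale (adjusted p = 0.00511 by edgeR, higher in 4 of 4 groups). SHFM1, the gene of the small cap subunit SEM1, had 263 and 172 CPM in R820W B and A, 333 and 215 CPM in N737H B and A, and 365 and 184 CPM in I593T B and A, against 395 and 183 CPM in WT B and A. It rose by 0.84 ± 0.11 (log2, SE, adjusted p = 0.017 by edgeR, higher in 4 of 4 groups). NFYB, a subunit of the factor that binds CCAAT boxes, had 38.0 and 49.3 CPM in R820W B and A, 36.4 and 58.1 CPM in N737H B and A, and 39.7 and 53.9 CPM in I593T B and A, against 37.1 and 58.5 CPM in WT B and A. It fell by 0.54 ± 0.096 (log2, SE, adjusted p = 0.038 by edgeR, lower in 4 of 4 groups). The calls were lost without either R820W library, where the adjusted p was 0.0657 and 0.0683 for RAD23B, 0.113 and 0.111 for SHFM1, and 0.173 and 0.175 for NFYB (without R820W B and without R820W A). The call of SHFM1 was also lost without an I593T library (0.115 without A, 0.116 without B), and that of NFYB without any single variant library (0.0749 to 0.175). No other single library ended these calls. Both runs of a group again rest on the same other groups and are not separate evidence. The fold change of RAD23B was larger than that of each of the 46 proteasome genes in this comparison.

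RefSeq windows of 250 bases were found for 40 of the 46 tested genes. The antioxidant response element (ARE, searched as TGACNNNGC on both strands), which NFE2L1 and NFE2L2 can bind, was present in 11 of 40 (27.5%), beside 10.9% of 35116 promoters. CCAAT boxes were present in 17 of 40 (42.5%), beside 32% of promoters, and the E-box CACGTG, which MYC can bind, in 3 of 40 (7.5%), beside 6.34%. ISRE matches were present in 5 of 40 (12.5%), beside 3.02%, GAS matches in 4 of 40 (10%), beside 6.57%, and the NF-kB motif in 1 of 40 (2.5%), beside 1.73%. ISRE windows were those of PSMA4, PSMB4, PSMB10, PSME2 and PSMG4, and the NF-kB window was that of PSMD6. These matches describe letters in the windows and do not show binding.

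Across the 8 libraries, the genes outside the set whose log2 level followed the summed core particle most closely were NDUFB9 (Pearson's r = 0.994), VPS72 (0.993), CCT7 (0.988), MRPS6 (0.987) and MRPL28 (0.985). They were picked by that r out of all genes tested, over libraries that share plasmids and letters, and are given as a description.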

How the data were processed

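The authors deposited whole-number read counts per gene symbol in 1 table, without normalization, per the file headers and values. The submitters' processing notes name hg19, FastQC, MACS2 and DESeq2. The sources used here do not give the aligner, counter, annotation or strand setting. Of the rows, 5569 had no count. With edgeR (4.0.16, R 4.3.3), filterByExpr kept 14834 genes (99.9% of counts), and the quasi-likelihood model was fitted to all 8 libraries by group (4 residual degrees of freedom, common biological coefficient of variation 0.262) after trimmed-mean scaling. Tests were two-sided, with Benjamini-Hochberg adjustment over all genes at 0.05. B versus A had the letter beside the groups. Within-letter values are differences of log2 CPM (prior count 2). SEs come from the fold change and its F statistic. The script was tested on simulated data. Exon lengths are unions of exons over the protein-coding transcripts of GENCODE v29, and promoters are from RefSeq (GRCh38.p14).

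The proteasome genes, the pathway lists and the rule for named genes were chosen with earlier results of these data known. The rule names PSMB5 to PSMB10, members past the threshold, the member of smallest p per class and comparison, and in each list the called genes and the 2 of highest level. Results of some of these genes that are withheld for evaluation are not reported here. All other genes given with values (among them PSMA5, PSMA7, PSMB3, PSMC3, PSMC6, PSMD2, PSMD14, PSME1, PSME2 and PSME4) were named after their values were seen. Alternatives were RLE normalization, no filter, at least 10 counts in 6 libraries, DESeq2 (1.42.0), limma voom (3.58.1), a replicate block, and each library left out. The interaction, the share per kilobase and the counts without a WT library were added after the data were seen. Deviations of same-letter libraries correlated from 0.024 (N737H with WT) to 0.41, and 1 pair was under 0.1, so the letters were not treated as pairs, although the first principal component (33.3%) separated A from B. The main test thus counted differences between letters as spread. With the letter as a block, edgeR's common biological coefficient of variation was 0.190 in place of 0.262. Genes at an unadjusted p under 0.05 by edgeR then rose from 154 to 384 for R820W versus WT. They rose from 362 to 670 for N737H and from 212 to 500 for I593T, with 1 proteasome gene in each comparison. The most similar pair of libraries still had a chi-square per gene of 6.60, above sampling noise. The series text names 2 independent experiments, but the labels do not tie libraries to them or to separate cultures, so the spread behind each p-value may be technical.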

Additional observations from a re-analysis of the deposited data

Results flagged for a closer look

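In 5 of the 6 gene classes and over all 48 proteasome genes, the summed level of every variant was below WT in replicate B and above WT in replicate A. The mean log2 ratio of the variants to WT in B minus that in A was -1.07 for the immunoproteasome, -0.55 for the constitutive beta genes, -0.38 for the alpha genes, -0.36 for the ATPases, -0.41 for the activators and others, and -0.37 for all 48 genes. The difference of these sums was not tested. The 3 ratios within a letter share the same WT library.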

How the results depend on the processing

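Proteasome genes called between groups stayed at 0 under each alternative run. Genes called between groups, 0 in each comparison as reported, were 2 (R820W, N737H and the mean of variants versus WT), 8 (I593T versus WT), 8 (R820W versus N737H), 10 (R820W versus I593T) and 11 (N737H versus I593T) without a filter on low counts. DESeq2 called 3 for I593T versus WT, 2 for R820W versus N737H and 1 for N737H versus I593T. With a replicate block, edgeR called 1 for R820W versus N737H and 0 elsewhere, and DESeq2 called 1 for R820W, 20 for N737H, 3 for I593T and 3 for the mean versus WT, 28 for R820W versus N737H, 5 for R820W versus I593T and 1 for N737H versus I593T. With the block in edgeR, the median of the proteasome genes lay between -0.13 and -0.07 in the comparisons with WT. Leaving out 1 library gave 0 to 3 for I593T versus WT and for R820W or N737H versus I593T, and 0 to 1 for the mean versus WT.

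In B versus A, 480 genes as reported became 760 without a filter, 1287 with DESeq2 (PSMC2, PSMC6 and PSMG4 among them), 1324 with the letters alone (PSMB8, PSMC2 and PSMC6 among them), and 0 (without R820W A) to 1069 (without WT A) with 1 library left out. In the interaction, 21 became 651 with DESeq2 and 11 with limma voom, and 8 (without I593T A) to 310 (without R820W B) with 1 library left out. It cannot be fitted without a WT library. The mean immunoproteasome share, 20.7%, was 27.6% without PSMB10 and PSMB7, 18.9% per kilobase, and 20.1% to 21.5% with 1 library left out. The cause of these shifts was not tested.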
